A study of Mus musculus with 6 samples.

Results

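Choroid plexus epithelial genes were examined in mRNA libraries of mouse brain at postnatal day 14. The set holds 10 genes, chosen by symbol as known markers of this epithelium: Ttr, Kl, Folr1, Aqp1, Clic6, Otx2, Sostdc1, Prlr, F5 and Calml4. Each had 1 row among the 31276 gene symbols of the deposited count table, and all 10 passed the filter on low counts with 16592 genes in all. There were 3 brains labelled PRMT5 olig2cre KO (KO), set against 3 wild-type brains (WT), all of strain C57BL/6 and of age P14. In the KO, Prmt5, the gene of an arginine methyltransferase, was targeted with Cre recombinase driven from Olig2, which is active in oligodendrocyte-lineage cells and in some neural progenitors. The labels do not give the allele that Cre acts on, whether WT brains carried Cre, the sex of the animals, or whether a sample is 1 animal, so the p-values cover the spread of these samples only, which may be technical.

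The choroid plexus is a folded sheet of epithelium around a core of vessels and stroma that hangs into the brain ventricles. It secretes cerebrospinal fluid, moves ions, water, folate and hormones between blood and fluid, and adds proteins of its own to that fluid. Its epithelial cells derive from the neural tube and adjoin the ependymal cells that line the ventricle, and Otx2 is needed for the tissue to form. In RNA from brain tissue, more cells of a type and more RNA per cell cannot be told apart.

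All 10 genes had counts in every library, and of 50 further choroid plexus genes 49 passed the same filter. Library totals ran from 15089140 to 16365802 counts in KO and from 15219817 to 16872925 counts in WT. Prmt5 itself had 68.2, 68.4 and 81.6 CPM (counts scaled to a common library total, with totals adjusted by the trimmed mean of M-values, TMM) in KO replicates 1 to 3, against 90.8, 90.4 and 91.8 CPM in WT replicates 1 to 3, a log2 fold change of -0.32 (SE 0.095; edgeR adjusted p = 0.232, and 0.0379 with the replicate number as a block). Gabra6, which marks granule cells of the cerebellum, had 80.03, 0 and 22.11 CPM in KO replicates 1 to 3, against 63.84, 0 and 0 CPM in WT replicates 1 to 3, so 3 libraries held cerebellar transcripts and 3 did not. Xist, transcribed in females, had 634, 603.35 and 0.25 CPM in KO replicates 1 to 3, against 0.25, 509.11 and 0.24 CPM in WT replicates 1 to 3.

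None of the 10 genes passed edgeR's quasi-likelihood test at a Benjamini-Hochberg adjusted p of 0.05, the threshold that 1.2% of all 16592 genes passed. All 10 had a positive log2 fold change, as did 52.3% of all genes, with a median of 0.36 and a range of 0.11 to 0.68, beside a median of 0.01 over all genes. At an unadjusted p under 0.05 there were 2, Clic6 and Ttr, where the share over all genes was 9.67%. DESeq2 called 0 of the 10 and 1.89% of the genes for which it gave an adjusted p. The 95% intervals of the fold change reached 1.7 to 2.34 at their upper ends, so a missed threshold does not show equal levels.

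**Figure D1:**
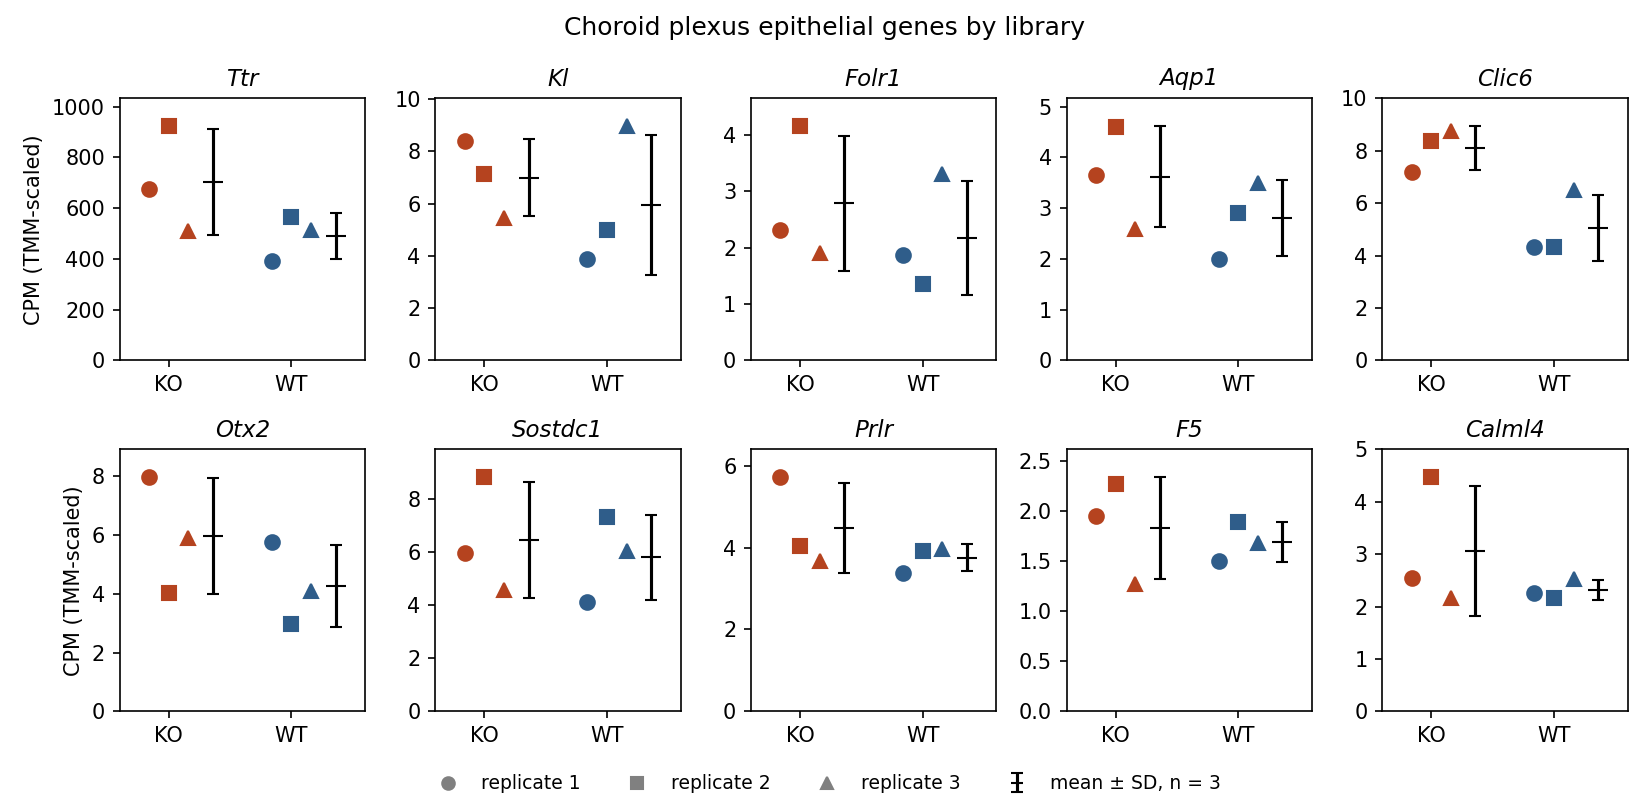
CPM (TMM-scaled) of each of the 10 genes in every library, with KO left of WT, a marker shape for each replicate number, and the mean ± SD beside each group (n = 3). Clic6 is the panel in which the groups do not overlap, with 7.18 to 8.77 CPM in KO and 4.31 to 6.5 CPM in WT.

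Ttr encodes transthyretin, the carrier of thyroid hormone, and with retinol-binding protein of retinol, that the epithelium secretes into cerebrospinal fluid. It had 675, 923 and 511 CPM in KO replicates 1 to 3, against 392, 565 and 514 CPM in WT replicates 1 to 3. KO replicates 1 and 2 stood above every WT library, and KO replicate 3 lay within the WT range. The means were 703 ± 207 CPM in KO and 490 ± 89 CPM in WT (SD, n = 3), 1.43-fold (95% interval 1.06 to 1.94), with a log2 fold change of 0.52 (SE 0.197) and an edgeR adjusted p of 0.406. With the replicate number as a block, edgeR called it (log2 fold change 0.50, adjusted p = 0.0144), as 3.41% of all genes were. Ttr was 1.72-fold and 1.63-fold higher in KO in the same-numbered pairs 1 and 2, and 0.994-fold in pair 3. The block gave an adjusted p of 0.00518 in limma-voom, where 3.41% of genes were called, and of 0.551 in DESeq2, where 2.19% were. With a term for cerebellar transcripts Ttr was also called (log2 fold change 0.69, edgeR adjusted p = 0.0133), as were 1.38% of all genes. Without KO replicate 2 the value was 0.27 (edgeR adjusted p = 0.723), and with a term for the libraries with abundant Xist it was 0.34 (edgeR adjusted p = 0.485).

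Ttr made up nearly all of the reads of the set. Its share of the counts of the 10 genes was 93.7, 95.1 and 93.4% in KO replicates 1 to 3 and 93.1, 94.7 and 92.7% in WT replicates 1 to 3. The summed level of the other 9 genes was 45.7, 47.9 and 36.3 CPM in KO and 29.0, 31.8 and 40.6 CPM in WT, in replicate order. The sums of the 9 genes in KO replicates 1 and 2 were above all WT sums, and KO replicate 3 was below WT replicate 3.

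The genes of transport across the epithelium include Clic6, Aqp1 and Folr1. Clic6, a member of the chloride intracellular channel family, had 7.18, 8.38 and 8.77 CPM in KO replicates 1 to 3, against 4.31, 4.33 and 6.5 CPM in WT replicates 1 to 3. It was the 1 gene of the 10 with every KO library above every WT library, a pattern that 8.02% of all genes showed. Its log2 fold change was the largest of the set (0.68, SE 0.213, 1.6-fold, 95% interval 1.16 to 2.22), with an edgeR adjusted p of 0.271. The replicate block gave it an edgeR adjusted p of 0.0524. Clic6 lies at chr16:92485736-92541243 on the plus strand (mm10, GENCODE M21, as for all gene positions here), Aqp1 at chr6:55336432-55348555 on the plus strand and Folr1 at chr7:101858331-101870788 on the minus strand.

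Aqp1, the water channel of the apical membrane, had 3.65, 4.6 and 2.6 CPM in KO replicates 1 to 3, against 2, 2.91 and 3.49 CPM in WT replicates 1 to 3. The groups overlapped, and KO replicate 3 lay below WT replicates 2 and 3 (log2 fold change 0.37, SE 0.299, edgeR adjusted p = 0.731). The log2 fold change was 0.16 without KO replicate 2, 0.18 without WT replicate 1, and 0.56 without KO replicate 3 or WT replicate 3. Folr1 encodes the folate receptor through which folate enters cerebrospinal fluid. It had 2.31, 4.16 and 1.91 CPM in KO replicates 1 to 3, against 1.87, 1.35 and 3.31 CPM in WT replicates 1 to 3. Its spread within a group was wide, with the highest library 2.18 times the lowest in KO and 2.45 times in WT, against a fitted fold of 1.27 between groups (log2 fold change 0.35, SE 0.398, edgeR adjusted p = 0.82). Without KO replicate 2 its log2 fold change was -0.05.

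Kl and Prlr act in hormone signalling. Kl encodes Klotho, a membrane protein that serves as co-receptor for the growth factor FGF23 and is also shed into the fluid. It had 8.39, 7.12 and 5.46 CPM in KO replicates 1 to 3, against 3.87, 5 and 8.96 CPM in WT replicates 1 to 3. The highest and the lowest library were both WT, so the KO values fell inside the WT range (log2 fold change 0.23, SE 0.297, edgeR adjusted p = 0.84). Prlr, the prolactin receptor, had 5.72, 4.03 and 3.68 CPM in KO and 3.37, 3.92 and 3.97 CPM in WT, in replicate order. KO replicate 1 stood apart from 5 libraries that lay between 3.37 and 4.03 CPM (log2 fold change 0.25, SE 0.238, edgeR adjusted p = 0.773), and without it the log2 fold change was 0.04. Kl lies at chr5:150952607-150993817 and Prlr at chr15:10177238-10349180, both on the plus strand. Prl, the gene of the pituitary ligand of Prlr, had no count in any library, which allows up to 0.18 to 0.203 CPM at 3 counts per library, for counting error only.

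Sostdc1 and F5 encode secreted proteins, and Calml4 a calmodulin-like protein. Sostdc1, an extracellular antagonist in BMP and Wnt signalling, had 5.96, 8.82 and 4.57 CPM in KO replicates 1 to 3, against 4.12, 7.3 and 6.02 CPM in WT replicates 1 to 3. The group ranges overlapped over most of their length (log2 fold change 0.15, SE 0.279, edgeR adjusted p = 0.896), and the value was -0.14 without KO replicate 2 and -0.04 without WT replicate 1. F5, coagulation factor V, had 1.27 to 2.27 CPM in KO and 1.5 to 1.89 CPM in WT, with the smallest log2 fold change of the set (0.11, SE 0.331, edgeR adjusted p = 0.94). It was -0.07 without KO replicate 2. The antisense gene Gm16548 shares 262 bases, 3.53% of the exonic length of F5, and reads there may belong to either. Calml4 had 2.55, 4.47 and 2.16 CPM in KO replicates 1 to 3, against 2.25, 2.16 and 2.53 CPM in WT replicates 1 to 3. KO replicate 2 alone was high, and without it the log2 fold change was 0.03, against 0.40 (SE 0.316, edgeR adjusted p = 0.722) with it. Sostdc1 lies at chr12:36314139-36318452, F5 at chr1:164151838-164220277 and Calml4 at chr9:62858080-62875921, all on the plus strand.

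**Figure D2:**
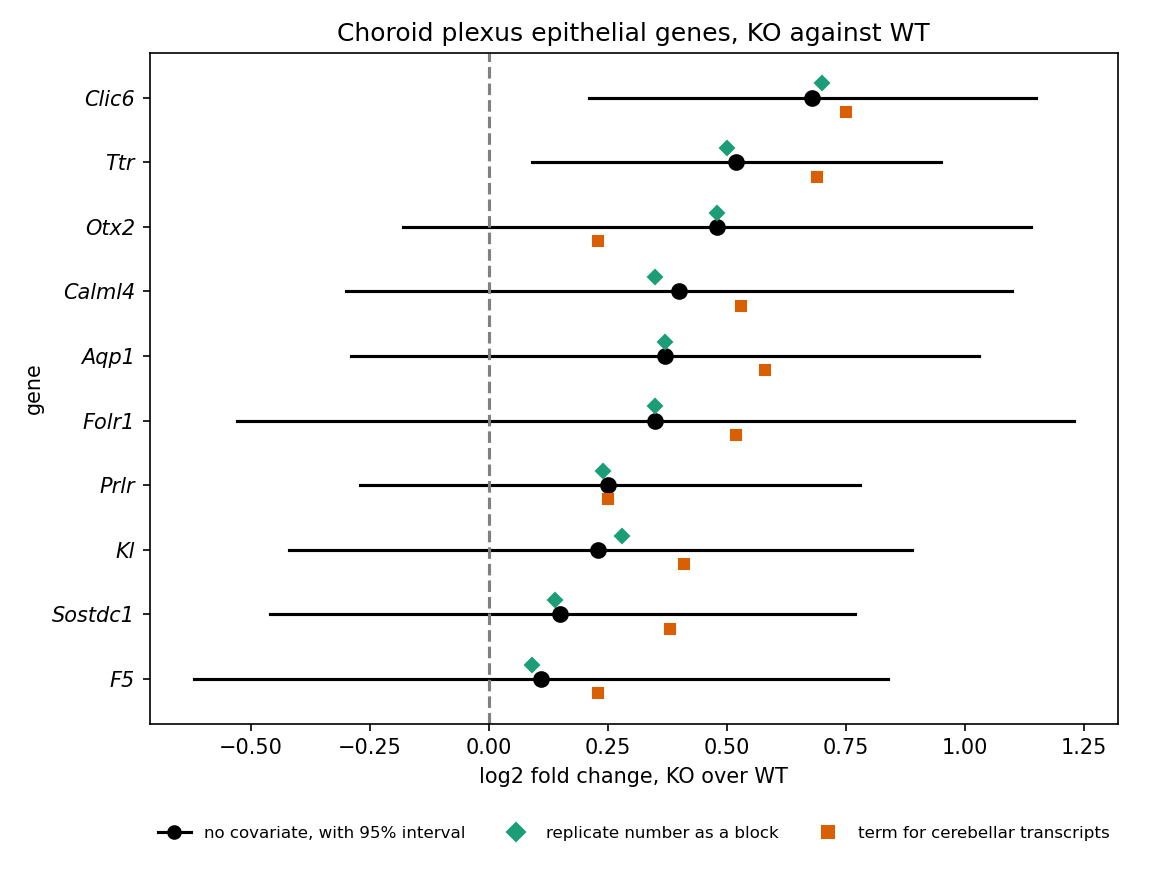
Log2 fold change of KO over WT for each gene, as a point with its 95% interval from edgeR's fit without covariates, and as single points from the fits with the replicate block and with a term for cerebellar transcripts. The intervals of Clic6 (0.21 to 1.15) and Ttr (0.09 to 0.95) lie above 0 before adjustment over all genes, and the other 8 cross 0.

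Otx2, the homeodomain transcription factor of the tissue, followed the other genes least across libraries. It had 7.97, 4.03 and 5.91 CPM in KO replicates 1 to 3, against 5.75, 2.97 and 4.09 CPM in WT replicates 1 to 3. In all 3 same-numbered pairs KO exceeded WT, by 1.39, 1.36 and 1.44-fold, and the groups overlapped (log2 fold change 0.48, SE 0.3, edgeR adjusted p = 0.638, and 0.255 with the replicate block). Leaving out 1 library gave 0.22 (without KO replicate 1) to 0.75 (without WT replicate 1). Its levels were 5.75 to 7.97 CPM in the 3 libraries with cerebellar transcripts and 2.97 to 4.09 CPM in the 3 without. All libraries with these transcripts were above all without for 6.44% of all genes, and Otx2 was the 1 gene of the 10 among them. Outside the choroid plexus, Otx2 is also expressed in midbrain and in granule cell precursors of the posterior cerebellum. With a term for cerebellar transcripts its log2 fold change was 0.23 (edgeR adjusted p = 0.764). The part of cerebellar or midbrain tissue in the level of Otx2 was not tested. Sostdc1 showed the opposite order, with 4.12 to 5.96 CPM in libraries with cerebellar transcripts and 6.02 to 8.82 CPM in those without, as 5.97% of all genes did. For Otx2 the log2 fold change was 0.27 among libraries with cerebellar transcripts alone, 0.18 among those without, and 0.46 with the cerebellum term and the replicate block together (edgeR adjusted p of 1, 0.838 and 0.545).

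Otx2 lies at chr14:48657677-48673819 (mm10, minus strand), where the antisense RNA gene Otx2os1 shares 154 bases, 3.65% of the exonic length of Otx2. Reads there cannot be assigned to either strand, since the strand setting of the counting is not given in the sources used here. The motif TAATCC, bound by homeodomain proteins of the OTX kind, was searched on both strands (GGATTA on the other) in the 250 bases before each RefSeq start site (GRCm38.p6, the mm10 assembly). It was present in 6.25% of 32851 such windows, and in 1 of 11 windows of the 6 genes of the set that had one. That match precedes an Otx2 start site, with its first base 211 bases upstream, and lies in an exon of longer Otx2 transcripts. The match is shown with 10 bases on either side, as the 1 match found, beside the whole window of Aqp1, the gene whose levels followed those of the other 9 most closely. Capitals mark GGATTA, and a match is a description of the letters only.
Otx2, chr14:48665305-48665330, minus strand: tgtgcccctcGGATTAtctcgttagt
Aqp1, chr6:55336049-55336298, plus strand: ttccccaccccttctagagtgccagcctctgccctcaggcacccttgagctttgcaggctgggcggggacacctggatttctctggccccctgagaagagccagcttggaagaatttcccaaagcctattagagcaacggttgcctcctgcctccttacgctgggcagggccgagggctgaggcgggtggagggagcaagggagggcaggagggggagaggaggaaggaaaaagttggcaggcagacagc

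Most of the other genes were high or low in the same libraries. KO replicate 2 had the highest level of 6 of the 10 genes, where it was the highest for 19.1% of all genes, and WT replicate 1 had the lowest of 6, where it was the lowest for 16.5%. The median deviation of the 10 genes from their own mean over the 6 libraries was 0.21, 0.49 and -0.22 on the log2 scale in KO replicates 1 to 3, and -0.41, -0.18 and -0.01 in WT replicates 1 to 3. By this median KO replicate 3 lay below WT replicates 2 and 3. By the summed level of the 9 genes other than Ttr it lay above WT replicate 2 (36.3 against 31.8 CPM). As a description over these 6 libraries, with no test, Pearson's correlation of log2 CPM with the mean profile of the other 9 genes was 0.949 for Aqp1 and 0.888 for Ttr. It ran from 0.571 to 0.757 for 7 genes and was -0.061 for Otx2. All points share the same 6 libraries.

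**Figure D3:**
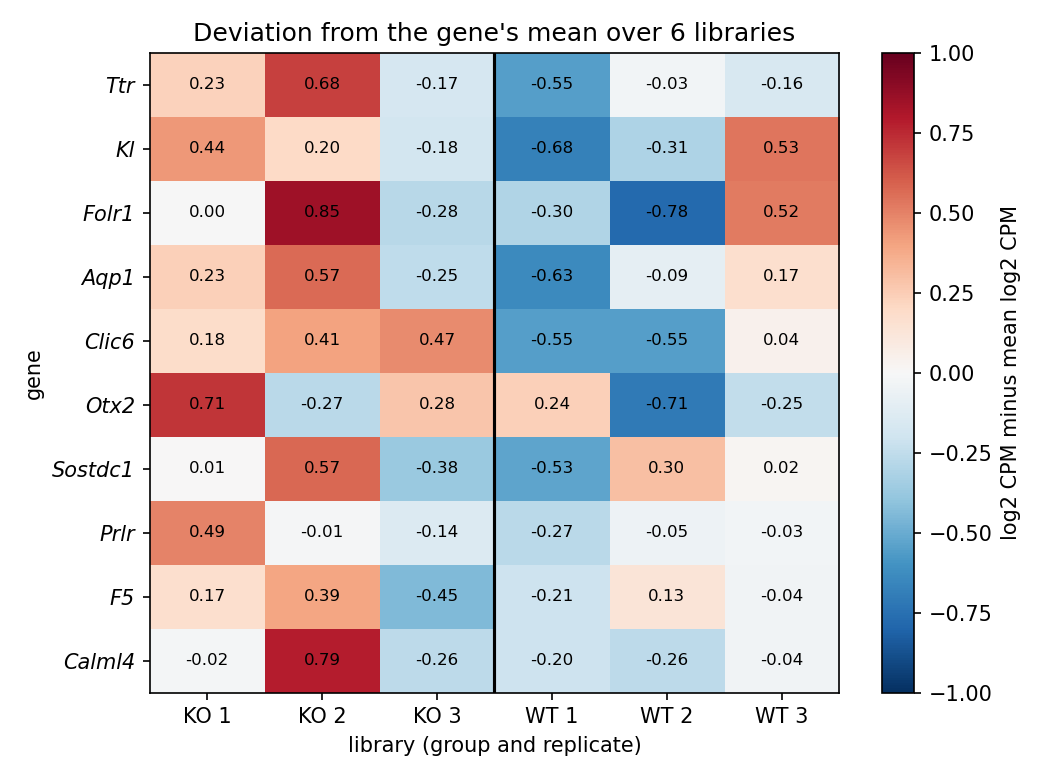
Log2 CPM of each gene in each library minus the gene's own mean over 6 libraries, with KO left of WT. The column of KO replicate 2 reaches 0.85 (Folr1), the column of WT replicate 1 reaches -0.68 (Kl), and KO replicate 3 is below 0 in every row except Clic6 and Otx2.

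The same-numbered pairs fell into different patterns. In pairs 1 and 2 all 10 genes were higher in KO, where 52.7% and 50.5% of all genes were, with median ratios of 1.56 and 1.5. In pair 3 only Clic6 and Otx2 were higher in KO, 2 of 10 where 50.4% of all genes were, with a median ratio of 0.807. Kl, for example, was 2.17-fold and 1.42-fold in pairs 1 and 2 and 0.609-fold in pair 3. The pairs also differed in Xist, which was abundant in KO replicates 1 and 2 and in WT replicate 2 only. Pair 1 thus set 634 CPM of Xist in KO against 0.25 CPM in WT. With a term for Xist the median log2 fold change of the 10 genes was 0.25. The part of sex in these patterns was not tested. KO replicate 3 also differed from the other libraries in transcript length: across 14604 genes, its deviation from the mean of all libraries had a Spearman correlation of -0.412 with exonic length, against -0.137 in KO replicate 2, 0.193 in KO replicate 1 and 0.108 to 0.222 in WT. With offsets adjusted for length the log2 fold change of Ttr, whose exons span 1.186 kb, was 0.40 and the median of the 10 genes 0.32. Among libraries with cerebellar transcripts alone (KO replicates 1 and 3 against WT replicate 1) the median log2 fold change of the 10 genes was 0.41, and among those without (KO replicate 2 against WT replicates 2 and 3) 0.46. With the cerebellum term and the replicate block together, a fit in which pair 3 carries no information on KO against WT and 1 residual degree of freedom is left, Ttr, Clic6 and Kl were called (log2 fold changes of 0.75, 0.84 and 0.81, edgeR adjusted p of 1.34e-11, 0.026 and 0.04), as were 3.22% of all genes.

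Per length, in CPM per kb of exonic sequence, Ttr stood far above the rest, at 593 ± 175 in KO and 413 ± 75.1 in WT (SD, n = 3). Sostdc1 followed at 3.62 ± 1.22 in KO and 3.26 ± 0.897 in WT, and Clic6 at 2.07 ± 0.212 in KO and 1.29 ± 0.322 in WT, the same first 3 genes in both groups. Otx2 (1.41 ± 0.466 in KO, 1.01 ± 0.331 in WT), Aqp1 (1.38 ± 0.38 in KO, 1.07 ± 0.286 in WT) and Folr1 (1.22 ± 0.523 in KO, 0.948 ± 0.441 in WT) did not differ among themselves beyond their spread, and the lowest KO value of Clic6 (1.83) was below the highest of Otx2 (1.89). Calml4 (0.841 ± 0.34 in KO, 0.635 ± 0.0523 in WT) and Kl (0.75 ± 0.157 in KO, 0.637 ± 0.287 in WT) likewise overlapped, as did Prlr (0.292 ± 0.0708 in KO, 0.245 ± 0.0216 in WT) and F5 (0.246 ± 0.0685 in KO, 0.228 ± 0.0265 in WT), the lowest of the set. Exonic length is the union over all annotated transcripts, 15.339 kb for Prlr, so the level per kb of the transcripts present may be higher.

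Of a list of 50 further genes of the epithelium, 49 were tested, 2 rose and 1 fell, beside 0.241% and 0.958% of all genes, and the list median was 0.16, with 32 positive values. Igfbp2, an insulin-like growth factor binding protein gene, had 98.8, 83.5 and 88 CPM in KO replicates 1 to 3, against 66, 61.8 and 55.2 CPM in WT replicates 1 to 3 (log2 fold change 0.56, SE 0.102, edgeR adjusted p = 0.0231). It is also expressed in meninges. Enpp2, which encodes autotaxin and is also expressed in oligodendrocytes, fell to 219, 222 and 156 CPM in KO replicates 1 to 3, against 323, 281 and 373 CPM in WT replicates 1 to 3 (log2 fold change -0.71, SE 0.149, edgeR adjusted p = 0.0482). The calls of Igfbp2 and Enpp2 were lost without WT replicate 3 (edgeR adjusted p of 0.179 for Igfbp2 and 0.256 for Enpp2), KO replicate 3 (0.0583 and 0.106) or WT replicate 2 (0.133 and 0.0654). That of Enpp2 also ended without WT replicate 1 (0.113) or KO replicate 2 (0.0853), all edgeR adjusted p. For Igfbp2 the call also ended with a term for Xist (log2 fold change 0.55, edgeR adjusted p = 0.075) and with length-adjusted offsets (0.47, adjusted p = 0.0727). For Enpp2 it ended with a term for Xist (-0.76, adjusted p = 0.108), with one for cerebellar transcripts (-0.67, adjusted p = 0.0506) and in DESeq2 with the replicate block (-0.73, adjusted p = 0.259). The log2 fold changes without any 1 library were 0.49 to 0.62 for Igfbp2 and -0.81 to -0.57 for Enpp2.

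Other genes of that list lay on both sides of 0 without passing the test. Igf2, a growth factor gene of choroid plexus and meninges, had 277, 235 and 148 CPM in KO replicates 1 to 3, against 141, 119 and 151 CPM in WT replicates 1 to 3 (log2 fold change 0.68, SE 0.191, edgeR adjusted p = 0.201). It was called by edgeR with the replicate block (adjusted p = 0.00817) and by DESeq2 without a block (adjusted p = 0.0108). Without KO replicate 3 it was called by edgeR (log2 fold change 0.90, adjusted p = 0.00906). It was not called by DESeq2 with the replicate block (log2 fold change 0.64, adjusted p = 0.569). It too was not higher in KO replicate 3 than in WT replicate 3. The next by p had log2 fold changes of -0.52 for the carbonic anhydrase gene Car14, -0.37 for the collagen gene Col9a3, -0.69 for the sphingomyelin synthase gene Sgms2, 0.35 for the protease inhibitor gene Spint2, 0.48 for Perp and -0.84 for the monocarboxylate transporter gene Slc16a8, with edgeR adjusted p of 0.309 to 0.479. Kcnj13, a potassium channel gene of the apical membrane, had a log2 fold change of -0.37 (SE 0.347).

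Lists of cells that a dissection can take along moved by different amounts. Of 12 genes of meningeal fibroblasts 5 rose and 0 fell, beside 0.241% and 0.958% of all genes. Their median was 0.70, with Col3a1 (log2 fold change 1.80, SE 0.175) and Lum (1.76, SE 0.234) first by p. Their summed level was 505 to 753 CPM in KO and 395 to 494 CPM in WT. Ptgds and Zic1, neither called (edgeR adjusted p of 0.809 and 0.798), made up much of these sums. Ptgds had 240, 187 and 396 CPM in KO and 209, 226 and 276 CPM in WT, in replicate order. Zic1 had 184, 59 and 72.5 CPM in KO and 150, 34.3 and 30.8 CPM in WT. Its level was 72.5 to 184 CPM in libraries with cerebellar transcripts and 30.8 to 59 CPM in those without, so these sums also vary with that split. Of 16 genes of ependymal cells 0 were called by edgeR and 7 had an unadjusted p under 0.05 (9.67% over all genes). Their median was 0.44, with 15 positive values, and their summed level was 492 to 553 CPM in KO, against 399 to 429 CPM in WT. Nnat alone made up most of these sums, with 413, 468 and 465 CPM in KO and 364, 365 and 346 CPM in WT, in replicate order. DESeq2 called 2 of the 16, Rarres2 and Nnat (1.89% over all genes). The leading ependymal genes by p were Rarres2 (log2 fold change 0.61, SE 0.146, edgeR adjusted p = 0.101) and Tmem212 (1.57, SE 0.394, edgeR adjusted p = 0.13). Both were higher in every KO library than in every WT library, as were 6 of the 16 in all and 8.02% of all genes. Of 9 genes of endothelium and blood 0 were called by edgeR or DESeq2 and 0 had an unadjusted p under 0.05, with a median of 0.02, 333 to 465 CPM in KO and 338 to 454 CPM in WT, and Alas2 (-0.42) and Plvap (0.25) first by p. Of 9 cerebellar granule cell genes 0 were called by edgeR, 1 by DESeq2 (Calb2) and 1 had an unadjusted p under 0.05 (also Calb2, 0.63), with Pax6 next (0.58). Their median was 0.48, and -0.26 with a term for cerebellar transcripts. Their summed level was 299 to 882 CPM in KO and 208 to 795 CPM in WT. In KO replicate 2 and WT replicates 2 and 3, where Gabra6 had 0 CPM, Calb2 still had 188, 111 and 97.8 CPM. The Calb2 value is thus not one of granule cells alone. Pax6 had 15.3, 8.79 and 9.81 CPM there. Gabra6 had a log2 fold change of 0.68 (SE 1.51). All 10 oligodendrocyte genes fell, led by Sox10 (-1.85) and Cnp (-2.06). The part of these cells in the values of the choroid plexus genes was not tested.

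**Figure D4:**
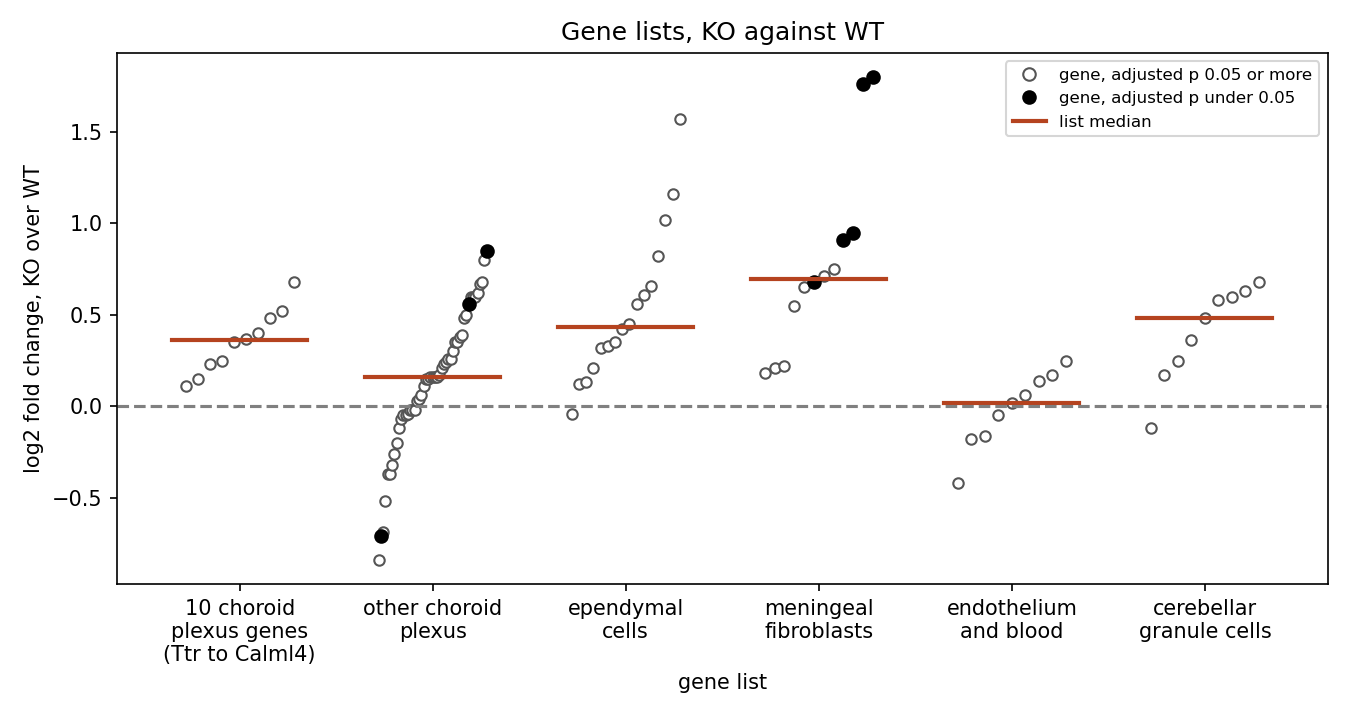
Log2 fold change of KO over WT for every tested gene of 6 lists, from edgeR's fit without covariates, with filled points for an adjusted p under 0.05 and a line at each list's median. The 10 choroid plexus genes lie between 0.11 and 0.68 with no filled point, and the 49 further choroid plexus genes lie on both sides of 0 around a median of 0.16.

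Pearson's correlation with the mean profile of the 10 genes over the 6 libraries was computed, as a description, for 15706 other genes averaging 1 CPM or more. The first 10 had values of 0.965 to 1: Gm7694, Prr5, E2f7, Mctp1, Mbd4, AK204824, Lbp, Abca9, Gm5141 and Sidt2. Lbp, a gene on the further choroid plexus list, had 7.42, 8.76 and 5.72 CPM in KO replicates 1 to 3, against 4.37, 5.61 and 7.22 CPM in WT replicates 1 to 3. None of these first 10 was called between KO and WT (edgeR adjusted p of 0.611 to 0.837, log2 fold changes of 0.07 to 0.75). Apart from Lbp, the other 9 are on none of the lists. They were picked for following the choroid plexus genes over these same libraries, so their fold changes are no separate result. How high correlations run by chance over 15706 genes and 6 libraries was not tested.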

How the data were processed

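For 3 KO and 3 WT brain libraries the authors deposited raw counts by gene symbol, summed over exons of UCSC known genes as the table is titled. The submitters' processing notes name the build mm10 and the tools STAR 2.3.0e, DESeq2, featureCounts 1.5.0, Trimmomatic 0.32 and FastQC 0.11.2, in no order. A deposited table of normalized signal equals these counts divided by 1 factor per library and was not tested. Strand and multimapping settings are not given in the sources used here. Of counts from 1 to 40, 71.3 to 73.5% were even numbers, so a count need not be an independent fragment.

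KO was compared with WT on the deposited counts in R 4.3.3 with edgeR 4.0.16 (filterByExpr, TMM, glmQLFit and glmQLFTest, 4 residual degrees of freedom, no covariate), with Benjamini-Hochberg adjustment over all 16592 genes. CPM values were computed here with edgeR. The alternatives used limma 3.58.1 (voom) and DESeq2 1.42.0. As a check of the code, the fit was run on simulated counts that were independent between libraries. That simulation held no pairs, cerebellar content or length trend, so it does not show how the fit performs under them. A library counted as holding cerebellar transcripts above 5 CPM of Gabra6. Exonic lengths and coordinates are from GENCODE M21, promoters from RefSeq (6 of 10 genes matched). Likeness used log2(CPM + 0.5).

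Same-numbered libraries deviated together (correlations of 0.351, 0.334 and 0.177 of their deviations within groups, all over 0.1). For unlike numbers the correlations were -0.381 to 0.1. On this ground, taken from the same counts, the fits with the replicate block treated them as pairs. The main fit, without covariates, did not. The labels do not say what a number marks. The members and lists were chosen with earlier results of these data known. Named are the 10 members, Prmt5, the 10 further choroid plexus genes and the 2 genes of each other list with the smallest p, and the 10 genes most like the members. Any other gene was named after its values were seen. Of the genes this rule names, 2 are not reported here.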

Additional observations from a re-analysis of the deposited data

How the results depend on the processing

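The median log2 fold change of the 10 genes stayed positive in all alternatives, from 0.19 (without KO replicate 2) to 0.69 (cerebellum term and replicate block), and from 0.19 to 0.52 when each library was left out. Of the 10 genes, 0 were called when any library was left out. With the replicate block 1 was called and 566 genes in all, with the cerebellum term 1, with limma-voom and the replicate block 1 and 565 genes in all, in the libraries without cerebellar transcripts alone 1 and 1254 genes, and with the cerebellum term and the replicate block together 3 and 535 genes. Over all genes, 199 were called without covariates, 315 by DESeq2, 356 by DESeq2 with the replicate block, 129 with the sex term, and 100 to 305 when each library was left out. Of the further choroid plexus list 3 were called without covariates, 0 to 3 when each library was left out, 0 with the sex term, 0 among libraries with cerebellar transcripts, 7 among those without, and 8 with the cerebellum term and the replicate block together. Fits of 3 libraries lend the single sample of a group the spread of the other group. The cause of these changes was not tested. Log2 fold changes turned negative without KO replicate 2 for Folr1 (-0.05), Sostdc1 (-0.14) and F5 (-0.07), without WT replicate 1 for Kl (-0.0027) and Sostdc1 (-0.04), and with the sex term for Sostdc1 (-0.06) and F5 (-0.07). The sex term, the length offsets, the subsets by cerebellar transcripts and the combined fits were chosen after seeing the data. Added alone, the replicate block changed only the call of Ttr among the 10 genes in edgeR and limma-voom. In DESeq2 it changed none, with an adjusted p of 0.551 for Ttr. Leaving out 1 library gave a highest log2 fold change of 0.65 for Kl and 0.78 for Folr1 (both without WT replicate 3), and of 0.35 for Sostdc1 and 0.32 for F5 (both without KO replicate 3). Apart from Ttr, the 10 genes had 20 to 149 counts per library, which limits the precision of each value.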

Other observations

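Otx2 is also a gene of the pineal gland, and the pituitary supplies the ligand of Prlr, so markers of both glands were listed. Of 12 such genes 3 passed the filter on low counts, and the summed level of all 12 was 4.32 to 5.84 CPM in KO and 3.38 to 3.81 CPM in WT. Pomc, the precursor gene of several pituitary and hypothalamic peptides, had 2.25, 1.7 and 2.29 CPM in KO replicates 1 to 3, against 0.999, 0.676 and 0.902 CPM in WT replicates 1 to 3. Its log2 fold change was 1.26 (SE 0.344) with an edgeR adjusted p of 0.176. In the alternatives that used 5 or 6 libraries the adjusted p ran from 0.0833 (limma-voom with the replicate block) to 0.597 (edgeR without WT replicate 2). Of the 3 tested, 0 were called by edgeR or DESeq2 and 1, Pomc, had an unadjusted p under 0.05. Asmt, the last enzyme gene of melatonin synthesis, and the hormone genes Gh, Prl and Cga had no count in any library.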
